A study of Mus musculus with 12 samples.

Results

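Mouse embryonic stem (ES) cells in which Tip60 had been knocked down were compared with ES cells that had received a control against EGFP, a jellyfish protein. The comparison rests on 7 single-colour microarrays of the 12 samples in the series: 3 Tip60 knockdown arrays (replicates 1, 2 and 4) and 4 EGFP control arrays (replicates 1 to 4). They were chosen by their labels, which name the knockdown and the replicate. A further knockdown array, replicate 3, was set aside by the submitters because its intensity profile stood apart. Its values are given here beside the main fit, which left it out. It entered only alternative fits and a check for outlying arrays, named as such. All 8 samples were E14 cells, an established mouse ES line, transfected in a single well for 72 hr with esiRNA (a pool of short double-stranded RNAs cut enzymatically from a longer one) at 0.33 ng/µl. The esiRNA was directed against Tip60 in one group and against EGFP in the other, and no genotype or second agent separated the groups. The design calls the replicates biological, without saying which wells were plated or transfected together. One esiRNA pool per target was used, so effects of the lowered target and other effects of that pool cannot be told apart. The study arose from an RNA interference screen of chromatin proteins in ES cells, and this comparison asked what the complex that contains Tip60 does to gene expression there.

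Tip60, now named Kat5, is a lysine acetyltransferase that acetylates histones H2A and H4 and other nuclear proteins. In ES cells it works in a large complex with p400 (Ep400), an ATPase that exchanges histone variants, and with shared subunits such as Trrap, Ruvbl1 and Ruvbl2. The complex is known for binding the promoters of many active and many silent genes in ES cells, and for roles in DNA repair, p53 signalling and self-renewal.

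Levels are given as log2 of the scanner's processed signal relative to the 75th percentile of each array, so a level of 0 is that percentile and a difference of 1 is a doubling. Between 25073 and 30107 of the 43379 spots lay well above background on the 7 arrays of the fit, against 22188 on Tip60 replicate 3. Over the genes tested, each by its brightest tested probe, the arrays correlated at 0.992 to 0.997 within the EGFP group. Within the Tip60 group of the fit the range was 0.992 to 0.996. Between the groups the correlation was 0.982 to 0.988, and Tip60 replicate 3 correlated at 0.972 to 0.979 with the EGFP arrays. The arrays lay on a pair of slides that each carried both groups: EGFP 1, EGFP 3, Tip60 2 and Tip60 4 shared one slide (slide 2), and EGFP 2, EGFP 4, Tip60 1 and Tip60 3 the other (slide 3). Defining ES cell genes were high on every array, Pou5f1 at 5.11 to 5.23 in the EGFP group and 5.15 to 5.32 in the Tip60 group.

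Kat5 itself was measured first, since it checks the labels. Its level was 1.17, 1.15, 1.24 and 1.39 on EGFP arrays 1 to 4 and -0.19, -0.29 and -0.27 on Tip60 arrays 1, 2 and 4. The knockdown arrays lay below every control array, and Kat5 fell by 1.49 on the log2 scale, 2.80-fold (SE 0.07, limma adjusted p = 1.3e-05). Replicate 3 read 0.04, also below every control array. The probe behind this value lies on chromosome 19 in the mm7 build (chr19:5498325-5498465), an interval of 141 bases for a 60-base probe, and is shown because the check of the knockdown rests on it.
Kat5 probe: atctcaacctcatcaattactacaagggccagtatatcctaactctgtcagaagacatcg
The region of Kat5 that the esiRNA covers is not given in the sources used here, so whether the probe lies inside it was not tested.

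The partners of Kat5 stayed near their control level in the main fit. Of the 19 genes of the Tip60-p400 complex, all were tested, and the median difference was -0.00. Of these 2 fell (10.5%) and none rose, beside 10.4% lower and 15.2% higher of all genes tested. Besides Kat5, Mbtd1, a reader of methylated histone H4, fell by 0.28 (limma adjusted p = 0.011), a call that was lost within slide 2 alone. Ep400 differed by 0.17 (SE 0.07, limma adjusted p = 0.10), Trrap by 0.14 (SE 0.08, adjusted p = 0.26), Ruvbl1 by 0.19 (SE 0.14) and Ruvbl2 by -0.11 (SE 0.12). Their groups overlapped, and the first 3 turned negative when arrays were centred on their medians. Of the 19 genes, none rose and 5 fell with that centring. When tested probes were averaged, 4 rose and 2 fell, so the absence of rises depended on the probe chosen.

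Across the genome the response was broad and, under the main scaling, lopsided in size. Of 16949 genes tested, 4340 passed a limma adjusted p under 0.05 (25.6%), 2579 of them higher (15.2%) and 1761 lower (10.4%) in Tip60 knockdown cells. At an unadjusted p under 0.05 there were 6370. Among the called genes 59.4% were higher. That share depended on the scaling: it was 22.6% with arrays centred on their medians, which moves the median of all genes to -0.20, 47.3% with quantile normalization, 50.5% with a normexp background and quantile normalization, and 50.1% in the deposited series matrix. The median size was 0.59 for genes called higher and 0.33 for genes called lower. A change of at least 2-fold was reached by 618 higher genes and 7 lower ones, at least 4-fold by 205 higher and none lower, and at least 8-fold by 62 higher and none lower. These counts hold for the main scaling and background and were not repeated for the whole genome under the others. On chromosome 5 the rises of at least 2-fold numbered 58 in the fit, 17 with normexp and 18 in the deposited series matrix. Of the 15553 genes well above background on all 7 arrays, 347 rose and 3 fell at least 2-fold.

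Genes at low levels made up most of the large rises. With genes split into 4 equal groups by mean level over the 7 arrays, 26.5% of the lowest group were called higher and 5.45% lower, and 418 rose at least 2-fold. In the highest group 4.65% were called higher and 10.5% lower, and 23 rose at least 2-fold. Calls lower made up, from the second group to the highest, 12.5%, 13.2% and 10.5%. The lowest group depended on the scaling, with 1121 genes higher in the fit and 574 in the deposited series matrix. A gene that is dim in the EGFP cells is tested if it is bright on the 3 Tip60 arrays, so such a gene had to differ: 106 tested genes were dim on every EGFP array and 18 on every Tip60 array. For lists that hold genes let in by the Tip60 arrays alone, counts and medians are therefore given over the genes well above background on at least 3 EGFP arrays, of which 16473 were tested, 14.2% higher and 10.8% lower over the genome.

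**Figure D1:**
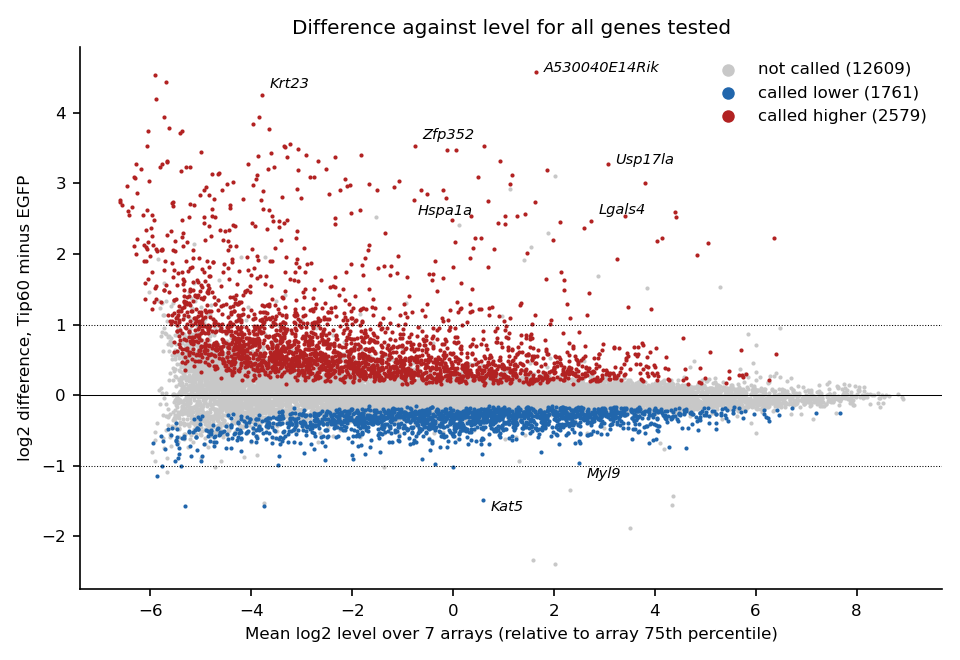
Difference between Tip60 and EGFP cells (log2, vertical) against mean log2 level over 7 arrays (horizontal) for the 16949 genes tested, with 2579 called higher in red and 1761 called lower in blue. Points above 1 number 618 and points below -1 number 7 among called genes, and the rises thin out towards high levels.

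Genes of the 2-cell embryo stood high in the knockdown cells. ES cell cultures hold a few cells that switch on such genes, among them Zscan4c and Zfp352. Of a list of 24 such genes 12 are on the array. All 11 that were well above background on at least 3 EGFP arrays rose, with a median of 2.91 beside 0.01 over all genes tested, and 14.2% of genes bright in EGFP cells rose. Zfp352, a zinc finger gene of this stage, read -2.35, -2.15, -2.42 and -2.16 on EGFP arrays 1 to 4 and 1.36, 1.10 and 1.30 on Tip60 arrays 1, 2 and 4. No knockdown array came near a control array, and the rise was 3.53 (SE 0.10, limma adjusted p = 1.2e-06), with 1.30 on replicate 3. Zscan4c, which acts on telomeres, started high, at 4.07 to 4.19 in EGFP cells, and rose by 2.16 (SE 0.06). Tcstv1 and Tcstv3 rose by 2.52 and 2.60, Arg2, a mitochondrial arginase, by 2.91, and Spz1, a transcription factor of the testis, by 2.78. Zfp809, which represses retroviruses, rose by 2.07, a call lost in the series matrix and when outlier spots were kept. In bulk RNA, more cells in that state and more RNA per cell cannot be told apart.

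The Usp17 genes encode deubiquitinases and lie in tandem copies. Usp17la read 1.63, 1.73, 1.62 and 1.71 in EGFP cells and 4.94, 4.89 and 4.99 in Tip60 cells, a rise of 3.27 (SE 0.05, limma adjusted p = 3e-07). Usp17lb rose by 3.47 (SE 0.06) and Usp17lc by 3.53 (SE 0.15), although their control levels were far lower, near -1.6 and -4.9. The probes of these copies are shown because copies of one family could share signal.
Usp17la probe: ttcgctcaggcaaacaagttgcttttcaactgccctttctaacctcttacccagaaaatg
Usp17lb probe: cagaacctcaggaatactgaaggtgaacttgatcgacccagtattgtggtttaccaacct
Usp17lc probe: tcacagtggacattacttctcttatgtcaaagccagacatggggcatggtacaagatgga
Laid side by side, each pair of these probes had the same base at 20 to 23 of 60 positions, so they read different stretches. Each may still bind transcripts of the other copies, which was not tested. The Usp17lb probe lies at chr7:100896719-100896784 and the Usp17la probe at chr7:100918944-100919002 in mm7.

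The largest rise of any tested gene was that of A530040E14Rik. It read -0.24, -0.41, -0.30 and -0.35 on the EGFP arrays and 4.19, 4.16 and 4.43 on the Tip60 arrays, a rise of 4.58 or 24.0-fold (SE 0.08, limma adjusted p = 3e-07), with 4.15 on replicate 3. Sp110, a nuclear body protein induced by interferon, rose by 3.48 (SE 0.09). C130026I21Rik rose by 3.77 (SE 0.07) from -5.36 to -5.16 in EGFP cells. Clusters of genes known mainly from the preimplantation embryo behaved in the same direction. Of 19 Tdpoz, Obox and Pramel genes on the array 6 were well above background on at least 3 EGFP arrays, and 5 of these rose, median 2.54, beside 14.2% of all such genes. Over all 11 tested the median was 2.54 in the fit, 1.11 in the deposited series matrix and 1.05 with normexp. Pramel7 rose by 3.09 (SE 0.12), Pramel48 by 3.08 (SE 0.05) and Pramel37 by 2.54 (SE 0.06), while Pramel13 differed by -0.11 (adjusted p = 0.28) with overlapping groups. For a gene that no EGFP array measured above background, the change is given as a lower bound against the dimmest signals that were. Tdpoz1 was at least 4.61-fold higher, Pramel6 at least 6.28-fold and Obox7 at least 2.20-fold.

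**Figure D2:**
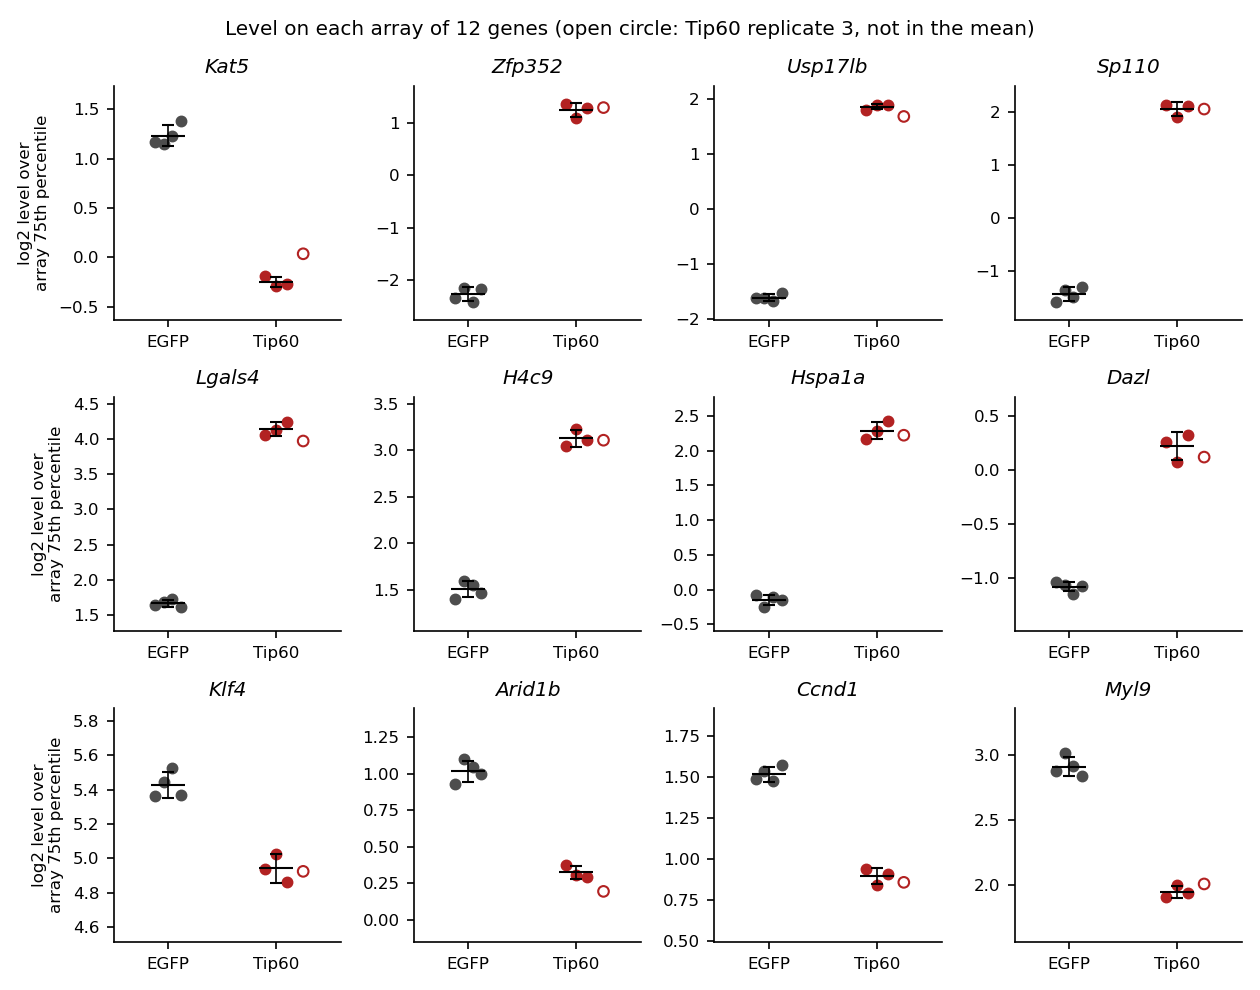
Log2 level of 12 genes on each EGFP array (grey, n = 4) and each Tip60 array (red, n = 3), with group mean and SD as bars and Tip60 replicate 3 as an open circle outside the mean. In every panel the filled points of the groups do not overlap, and the open circle lies on the knockdown side for Kat5 at 0.04 and for Zfp352 at 1.30.

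Some of the large rises sat next to one another in the genome. Of 586 genes with a position that rose at least 2-fold, 238 had another such gene within 500 kb (40.6%), as had 4683 of the 16084 other tested genes (29.1%). Of the raised genes 92 fell into 24 groups of at least 3. These counts include genes let in by the Tip60 arrays alone, such as Hoxd4 and Hoxd1, whose rise was fixed by the filter. The tested genes of an interval can include such genes too, and no count was made over genes bright in EGFP cells. Probes that kept a name from the file, such as TC1489624, count as genes of their own. Some neighbouring entries may therefore read the same transcript, which was not tested. On chromosome 5 of mm7, chr5:93398040-94730391 held 7 tested genes and all 7 rose at least 2-fold, Pramel37, Pramel39, Pramel48 and AA792892 among them, by 2.54 to 3.23. On chromosome 1, chr1:85164176-85750461 held 8 tested genes of which 6 rose at least 2-fold, by 1.10 (Cab39, a partner of the kinase Lkb1) to 4.58 (A530040E14Rik). On chromosome 14, chr14:38598705-39906836 held 8, of which 7 rose at least 2-fold. Smaller groups followed known gene families. Serpinb1a, Serpinb1b and Serpinb1c, inhibitors of neutrophil proteases, rose by 1.18, 1.40 and 1.25, and were 3 of 5 tested genes in their interval. Treml4, Trem2 and Treml1, receptors of myeloid cells, were 3 of 3, with Trem2 up by 2.40 (SE 0.11). Other groups held unrelated or muscle genes: Tnni1, Tnnt2 and Cacna1s, 3 of 5, rose by 1.24, 1.36 and 2.43, the call for Tnnt2 being lost within slide 2. In these groups the most alike probes were those of Krtap5-1 and Krtap5-4, hair protein genes on chromosome 7, with 49 of 60 bases shared, so that each may read both transcripts. No other pair shared more than 28.

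Taken by chromosome, the share of tested genes that rose at least 2-fold ran from 2.09% on chromosome 4 to 5.45% on chromosome 5 among chromosomes with over 100 tested genes. Chromosome 5 held 58 such genes of 1065. Its count fell to 18 in the deposited series matrix, to 17 with a normexp background, and to 30 when a gene had to be well above background on all 7 arrays.

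Germ cell genes moved in both directions. Of 27 tested regulators of germ cells 11 rose and 4 fell, beside 15.2% and 10.4% of all genes, with a median of 0.20 that was -0.00 when arrays were centred on their medians. Dazl, an RNA-binding protein needed for gametogenesis, read -1.04, -1.06, -1.14 and -1.07 in EGFP cells and 0.26, 0.08 and 0.32 in Tip60 cells, a rise of 1.30 (SE 0.07, limma adjusted p = 2.5e-05). Tdrd9 and Gtsf1, which serve transposon silencing by piRNAs, rose by 1.17 (SE 0.14) and 0.64 (SE 0.06). Tfap2c and Prdm1, which specify primordial germ cells, went the other way: Tfap2c fell by 0.56 (SE 0.06, adjusted p = 0.00092) and Prdm1 by 0.45 (SE 0.06), the latter not within slide 2 alone.

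Among 23 tested meiosis genes 11 rose (47.8%) and 2 fell (8.70%), median 0.28, beside 15.2% and 10.4% of all genes. With arrays centred on their medians 7 rose and 3 fell. Smc1b, the cohesin subunit of meiosis, read 0.77, 0.89, 0.82 and 0.68 against 2.06, 2.06 and 2.17 and rose by 1.31 (SE 0.07, limma adjusted p = 1.7e-05). Sycp1 and Syce1, parts of the central synaptonemal complex, rose by 1.02 (SE 0.08) and 0.70 (SE 0.05), Hormad2, which monitors unpaired axes, by 0.66, and Slc25a31, the testis ADP/ATP carrier, by 0.94. Sycp3, a part of the axial element of that complex, fell by 0.47 (SE 0.09), and Rec114, which helps form meiotic breaks, by 0.34 (SE 0.06), the latter call lost within slide 2. The parts of one structure thus differed in direction, with Sycp1 above and Sycp3 below every control array.

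Genes of early lineages included more rises than falls under the main scaling. Among genes well above background on at least 3 EGFP arrays, 8 of 15 endoderm genes rose and none fell (median 0.24), and 7 of 16 of mesoderm and primitive streak rose and none fell (median 0.42), beside 14.2% and 10.8% of all such genes. In trophectoderm 7 of 20 rose and 1 fell (median 0.30), but 1 rose and 2 fell with arrays centred on their medians. Under that scaling all tested endoderm genes, 18 in number, had 7 higher and 1 lower, and the 18 of mesoderm 6 and none. The sizes depended on the processing too. Over all tested genes the endoderm median was 0.45 in the fit, 0.21 in the deposited series matrix and 0.20 with normexp. For mesoderm it was 0.46, 0.14 and 0.12 in the same order. Sox17, an endoderm transcription factor, read -3.20, -3.34, -3.26 and -3.32 against -2.06, -2.04 and -2.18, a rise of 1.19 (SE 0.06, limma adjusted p = 1.8e-05). Foxa1 and Foxa2 rose by 1.18 and 0.81, but Foxa1 was above background on only 2 EGFP arrays and read -5.51 on replicate 3, inside its EGFP range of -5.59 to -5.49. Snai1, which drives epithelial-mesenchymal transition, rose by 1.51 (SE 0.09) and Kdr, the VEGF receptor, by 0.83. Plac1, a placental gene, rose by 1.17 (SE 0.11) and Cdx2 by 0.43, a call lost with median centring. Of 18 neural genes 2 rose and 3 fell, median -0.04, near the shares of all genes, Pax6 falling by 0.30 (SE 0.06), a call lost within slide 2. Of 38 Hox genes on the array 11 were well above background on at least 3 EGFP arrays, and 5 of these rose, median 0.41. On all 7 arrays 9 were, of which 4 rose, median 0.11. The other 6 tested Hox genes, Hoxa9, Hoxd4 and Hoxd1 among them, passed the filter through the Tip60 arrays alone, and such a rise was fixed by the filter. Hoxb2 rose by 1.81 (SE 0.15), and Hoxa10, dim on every EGFP array, was at least 2.13-fold higher. Hoxd13 rose by 1.21 (SE 0.17), a call lost within slide 2. Over all 17 tested Hox genes the median was 0.64 in the fit, 0.18 in the deposited series matrix and 0.16 with normexp.

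Of 26 tested pluripotency genes 4 rose (15.4%) and 2 fell (7.69%), median -0.03, close to the 15.2% and 10.4% of all genes. With arrays centred on their medians 2 rose and 10 fell. Pou5f1 differed by 0.06 (SE 0.06, limma adjusted p = 0.52), Nanog by 0.00 (SE 0.06, adjusted p = 0.98) and Zfp42 by -0.03 (SE 0.11, adjusted p = 0.86), each with overlapping groups. Klf4 fell by 0.48 (SE 0.07, adjusted p = 0.0019), from 5.36, 5.44, 5.52 and 5.37 to 4.94, 5.03 and 4.86, a call lost within slide 2 alone. Sox2 fell by 0.21 (SE 0.05, adjusted p = 0.019), a call that was lost in the deposited series matrix, with normexp, without a filter on background, within slide 2, and without EGFP replicate 3, Tip60 replicate 1 or Tip60 replicate 2. Fbxo15, an F-box gene of ES cells, rose by 0.65 (SE 0.05) and Dppa2, which primes genes of the 2-cell stage, by 0.55 (SE 0.06). Klf4 is a target of LIF signalling through STAT3, whose list had 7 of 21 genes lower (33.3%) and 2 higher (9.52%), median -0.10. Junb and Jund, subunits of AP-1, fell by 0.51 (SE 0.08) and 0.49 (SE 0.06). Socs2, a feedback inhibitor, fell by 0.55 (SE 0.11), while its relative Socs1 rose by 0.48, lost within slide 2. The other riser of this list was Pramel7, a gene that STAT3 is known to activate.

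Called genes of 3 signalling lists lay in both directions, at shares not far from the 15.2% higher and 10.4% lower of all genes. FGF and ERK had 4 higher and 6 lower of 32 (12.5% and 18.8%), Nodal and BMP 5 and 6 of 31 (16.1% and 19.4%), and Wnt, over genes bright in EGFP cells, 6 and 5 of 30. Fgf15, a secreted growth factor, rose by 0.74 (SE 0.05, limma adjusted p = 0.00012), while Egr1, an immediate early gene, fell by 0.40 (SE 0.08), lost within slide 2. Id3, a target of BMP signalling, rose by 1.01 (SE 0.10). Dkk1 and Axin2, inhibitors that Wnt signalling itself induces, rose by 1.02 (SE 0.06) and 0.51 (SE 0.06). Tcf7l2, a transcription factor at the end of that pathway, fell by 0.52 (SE 0.08).

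Of 36 chromatin remodeller genes 12 fell and 2 rose, median -0.17, beside 10.4% and 15.2% of all genes. With 2 arrays per group within slide 2, 4 were lower and 2 higher. Arid1b, a DNA-binding subunit of BAF complexes, read 0.93, 1.10, 1.04 and 1.0 in EGFP cells and 0.37, 0.30 and 0.29 in Tip60 cells, a fall of 0.69 on the log2 scale (SE 0.06, limma adjusted p = 0.00021), with 0.19 on replicate 3. Arid2, its counterpart in PBAF, fell by 0.56 (SE 0.05), Chd2 by 0.46 (SE 0.05) and Chd9 by 0.54 (SE 0.08), all with groups apart. Chd7 fell by 0.55 (SE 0.11), lost within slide 2 and when probes were averaged, and Mta3, a NuRD subunit, by 0.47, lost within slide 2. Ino80 and Smarca2 went up. Ino80, an ATPase that moves H2A.Z nucleosomes, read 2.89 on all 4 EGFP arrays and 3.60, 3.55 and 3.59 on the Tip60 arrays, a rise of 0.69 (SE 0.04, adjusted p = 5.3e-05). Smarca2, the alternative ATPase of BAF, which ES cells express little, rose by 0.92 (SE 0.08) from a level near -5.

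Of 25 other histone acetyltransferase genes 4 rose and 6 fell (24.0%), and of 26 deacetylase genes none rose and 4 fell (15.4%), beside 15.2% and 10.4% of all genes. Msl1, a scaffold of an H4 acetyltransferase complex, fell by 0.45 (SE 0.06, limma adjusted p = 0.0023). Ncoa1, a nuclear receptor coactivator, rose by 0.54, lost within slide 2. Among 29 genes of DNA methylation and H3K9 silencing 6 fell (20.7%) and none rose, led by Tet3, an oxidase of methylcytosine, which fell by 0.69 (SE 0.07, adjusted p = 0.00067) but read -3.30 on replicate 3 beside -3.18 to -3.06 in EGFP cells. Polycomb had 4 of 29 higher (13.8%) and 2 lower (6.90%). Cbx6 fell by 0.44 (SE 0.05), and Cbx8, higher by 0.53 in the fit, read -4.33 on replicate 3, inside its EGFP range of -4.50 to -4.18, and lost its call with that array included, in the series matrix, with normexp and within slide 2.

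Among 40 tested histone genes 10 rose (25.0%) and 2 fell (5.0%), median -0.01, beside 15.2% and 10.4% of all genes. With arrays centred on their medians 7 rose and 8 fell. H4c9 read 1.40, 1.59, 1.55 and 1.47 in EGFP cells and 3.05, 3.23 and 3.11 in Tip60 cells, a rise of 1.63 (SE 0.07, limma adjusted p = 8.4e-06), with 3.11 on replicate 3. H2bc4 rose by 1.60 (SE 0.07), H1f2, a linker histone, by 1.22 (SE 0.09) and H2bu2 by 0.82 (SE 0.07). Histone genes of a class resemble each other closely, so signal from other copies may enter these probes. Both macroH2A genes fell, variants found at inactive chromatin: Macroh2a1 by 0.53 (SE 0.09) and Macroh2a2 by 0.50 (SE 0.11). The call for Macroh2a1 was lost within slide 2.

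**Figure D3:**
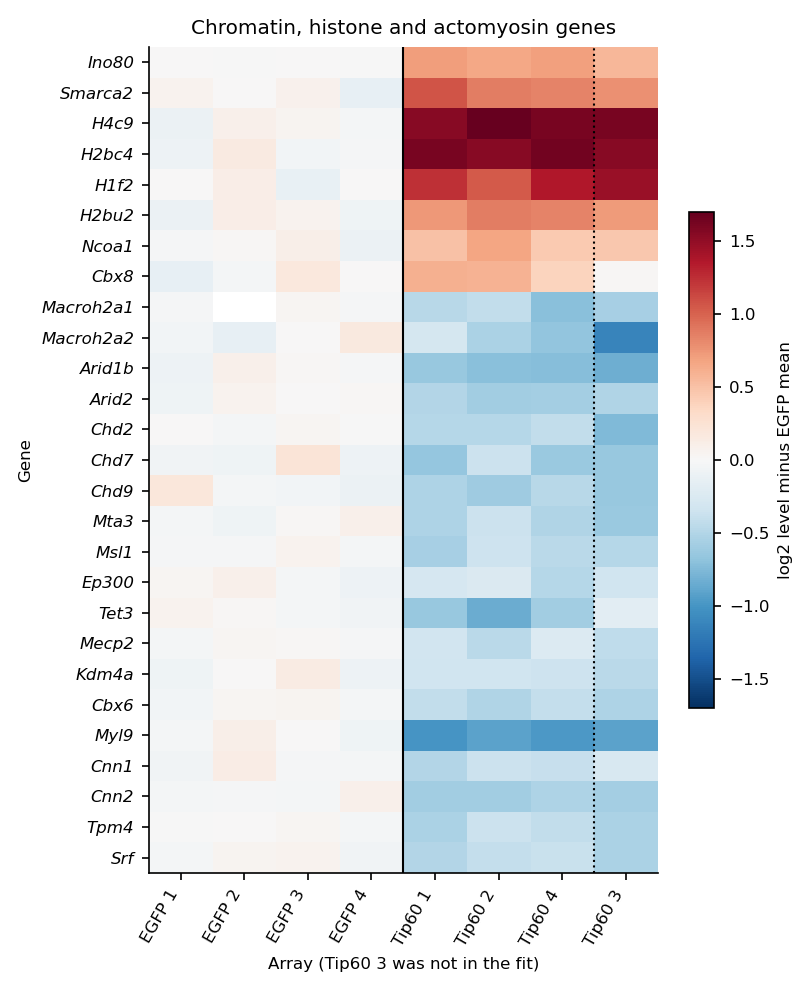
Log2 level minus the EGFP mean for 27 chromatin, histone and actomyosin genes (rows) on 8 arrays (columns), with Tip60 replicate 3 to the right of the dotted line. The Tip60 columns are red for the rises, up to 1.63 for the mean of H4c9, and blue for the falls, down to -0.97 for Myl9, and replicate 3 is near white for Cbx8. The white cell for Macroh2a1 on EGFP replicate 2 is a dropped spot.

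The p53 pathway held more falls than rises. Of 31 tested genes 15 fell and 3 rose, median -0.23, beside 10.4% and 15.2% of all genes, and within slide 2 alone 6 were lower and 3 higher. Dcxr, a carbonyl reductase, read 0.30, 0.41, 0.29 and 0.30 against -0.32, -0.28 and -0.43 and fell by 0.67 (SE 0.06, limma adjusted p = 0.00027). Bbc3 (Puma), which triggers apoptosis, fell by 0.62 (SE 0.11), Zmat3 by 0.48 (SE 0.06) and Trp53inp1 by 0.46 (SE 0.06). Pmaip1 (Noxa), also a trigger of apoptosis, and Plk3, a stress kinase, rose by 0.51 (SE 0.07) and 0.48 (SE 0.08), so members of the pathway with one function differed in direction. The call for Pmaip1 was lost with median centring. The apoptosis machinery had 3 higher (10.3%) and 6 lower (20.7%) of 29, with Casp8 up by 0.59 (SE 0.06). DNA damage response genes had 1 higher (2.17%) and 7 lower (15.2%) of 46.

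Among 34 cell cycle control genes 6 rose (17.6%) and 9 fell (26.5%), beside 15.2% and 10.4% of all genes, and the falls included regulators of G1. Ccnd1 (cyclin D1) read 1.49, 1.53, 1.47 and 1.57 against 0.93, 0.84 and 0.91, a fall of 0.62 (SE 0.05, limma adjusted p = 0.0002), and its partner kinase Cdk6 fell by 0.49 (SE 0.05). The pocket proteins that hold cells in G1 were also lower, Rb1 by 0.43 (SE 0.06) and Rbl2 by 0.55, the latter call lost with averaged probes. Ccne2 (cyclin E2) rose by 0.50 (SE 0.09), lost with median centring and within slide 2. Of the genes that carry out the cycle, 1 of 25 for mitosis and 1 of 25 for replication fell and none rose. With arrays centred on their medians, where 5094 of the 16949 genes were lower, 10 and 11 of these fell, and with replicate 3 included 6 of the mitosis genes and 1 of the replication genes did.

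Core growth machinery held few called genes beside 15.2% higher and 10.4% lower of all genes. None of 26 ribosome biogenesis genes and none of 13 housekeeping genes was called in limma, the former lying between -0.14 and 0.13. Of 83 ribosomal protein genes 1 rose and 1 fell, and of 24 cholesterol synthesis genes 1 fell. With arrays centred on their medians 3 ribosome biogenesis, 2 housekeeping, 14 ribosomal protein and 5 cholesterol genes were lower. Among 73 genes of oxidative phosphorylation 3 rose and 4 fell, and 28 fell with median centring. The risers were Cox8c and Cox7b2, forms known from testis, by 1.08 (SE 0.10) and 0.86 (SE 0.12), and Cox7a1, a form of muscle, by 0.52. Ndufa13, Ndufv3 and Ndufb10, of complex I, fell by 0.31, 0.25 and 0.18 and Uqcrc1, of complex III, by 0.22. The last 5 are outside the rule for named genes and were named after their values were seen. The integrated stress response had 8 lower (29.6%) and 2 higher (7.41%) of 27, with Trib3, a pseudokinase induced by ATF4, down by 0.55 (SE 0.06, limma adjusted p = 0.00096), and Atf3 up by 0.40, lost with median centring and within slide 2. Glycolysis and hypoxia had 4 in each direction of 28 (14.3%), led by P4ha2, a collagen prolyl hydroxylase, which rose by 1.49 (SE 0.12).

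Heat shock genes held a single large change. Hspa1a, the stress-induced HSP70, read -0.08, -0.25, -0.11 and -0.15 in EGFP cells and 2.17, 2.28 and 2.42 in Tip60 cells, a rise of 2.44 or 5.41-fold (SE 0.08, limma adjusted p = 1.9e-06), with 2.22 on replicate 3. Of 29 tested heat shock and chaperone genes 3 rose (10.3%) and 1 fell (3.45%), beside 15.2% and 10.4% of all genes, and the median was -0.03. Dnajb9, a chaperone of the endoplasmic reticulum, rose by 0.84 (SE 0.09).

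The actin cytoskeleton was a further group with more falls than rises. Of 33 tested actomyosin genes and targets of YAP and SRF 12 fell (36.4%) and 3 rose (9.09%), median -0.19, beside 10.4% and 15.2% of all genes, and within slide 2 alone 5 were lower and 1 higher. Myl9, the regulatory light chain of non-muscle and smooth muscle myosin, read 2.88, 3.01, 2.92 and 2.84 against 1.90, 2.0 and 1.93, and fell by 0.97 on the log2 scale or 1.95-fold (SE 0.06, limma adjusted p = 4.6e-05). The actin-binding Cnn2 fell by 0.57 (SE 0.05), Tpm4, a tropomyosin, by 0.44 (SE 0.06), and Srf, the transcription factor that drives such genes, by 0.43 (SE 0.06). Cnn1 fell by 0.42, lost within slide 2. Epithelial junction genes had 9 lower (30.0%) and 1 higher (3.33%) of 30, median -0.12, within slide 2 alone 3 and 1. The connexin Gjb5 fell by 0.47 (SE 0.06) and the desmosomal cadherin Dsg2 by 0.42 (SE 0.06), while Ovol1, a transcription factor of epithelia, rose by 0.72 (SE 0.05).

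**Figure D4:**
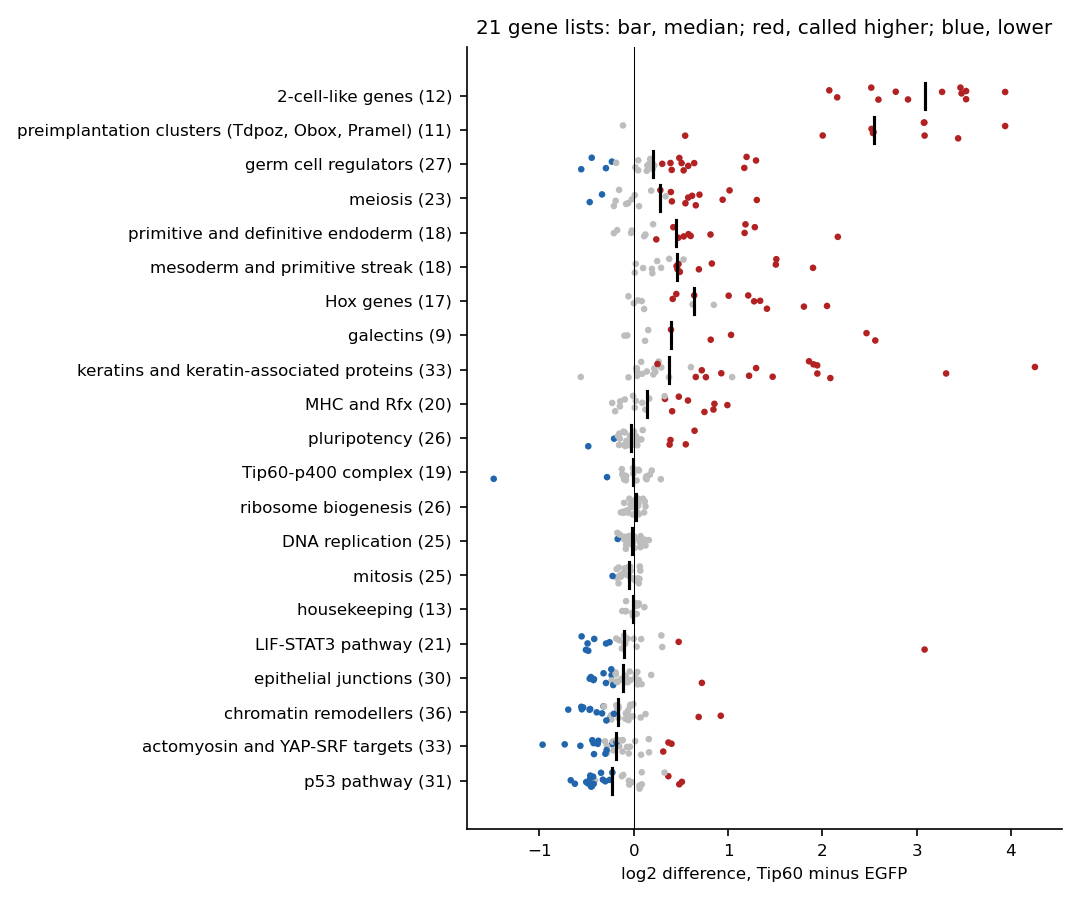
Log2 difference between Tip60 and EGFP cells for each tested gene of 21 lists (number tested in parentheses, genes let in by the Tip60 arrays alone included), with the median of each list as a black bar and called genes in red (higher) or blue (lower). The 12 genes of the 2-cell list all lie above 2, ribosome biogenesis genes stay between -0.14 and 0.13, and the p53 list has its median at -0.23.

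Families that are silent in most tissues held some of the large rises. Counts here are over members well above background on at least 3 EGFP arrays, not over families, and stand beside 14.2% higher and 10.8% lower of all such genes. Of 83 keratin and keratin-associated genes on the array 27 were that bright, and 12 rose and none fell, median 0.25. Krtap4-13, a hair protein, read -0.54, -0.42, -0.59 and -0.43 against 2.91, 2.62 and 2.93, a rise of 3.31 (SE 0.09, limma adjusted p = 1.2e-06). Krt23 rose by 4.26 (SE 0.13), although only 2 of 4 EGFP arrays measured it above background, and Krt79 by 2.09 (SE 0.09). Of 901 olfactory receptors on the array 98 were that bright, and 7 rose and 1 fell, a share of rises below that of all genes. Olfr713 rose by 3.48 (SE 0.08), Olfr20 by 3.55 (SE 0.11), and Olfr120 was at least 5.17-fold higher. Of 9 defensins that bright 6 rose, median 0.77, and Defcr-rs2, dim on every EGFP array, was at least 7.05-fold higher. Among 8 protocadherins 3 rose and 1 fell, with Pcdh8 up by 2.47 (SE 0.08).

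Galectins bind sugars on the cell surface. Of 9 tested, 5 rose (55.6%) and none fell, median 0.40, beside 15.2% higher and 10.4% lower of all genes. Lgals4, a galectin of the gut, read 1.64, 1.69, 1.73 and 1.62 in EGFP cells and 4.05, 4.12 and 4.24 in Tip60 cells, a rise of 2.47 (SE 0.06, limma adjusted p = 7.8e-07), and Lgals6 rose by 2.56 (SE 0.06). Lgals9 rose by 1.03 and Lgals7 by 0.82. Lgals4 and Lgals6 are closely related copies, and their probes are shown because each rise rests on 1 of them.
Lgals4 probe: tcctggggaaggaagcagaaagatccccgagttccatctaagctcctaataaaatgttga
Lgals6 probe: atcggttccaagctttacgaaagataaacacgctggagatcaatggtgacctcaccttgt
Side by side these had the same base at 22 of 60 positions. Whether either probe also binds the other transcript was not tested.

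Interferon and immune genes moved in both directions. Of 22 interferon response and sensing genes well above background on at least 3 EGFP arrays 6 rose and 4 fell, median 0.09, beside 14.2% and 10.8% of all such genes. With arrays centred on their medians all 23 tested had 4 higher and 7 lower. Oas1a, which makes the activator of RNase L, rose by 1.05 (SE 0.06, limma adjusted p = 2.1e-05), Sting1, the adaptor of cytosolic DNA sensing, by 0.79 (SE 0.06) and Oasl1 by 0.48 (SE 0.06). Bst2 (tetherin) moved the other way, from 4.22, 4.37, 4.32 and 4.24 to 3.67, 3.73 and 3.60, a fall of 0.62 (SE 0.06, adjusted p = 0.00046). Of 20 MHC and Rfx genes 8 rose and none fell, median 0.14, beside 15.2% and 10.4% of all genes, but with arrays centred on their medians 6 rose and 4 fell, median -0.06. H2-Ab1, a class II chain, rose by 0.85 (SE 0.09), and Rfxap, a factor that drives class II genes, by 0.86 (SE 0.10), lost when its probes were averaged.

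Imprinted genes, expressed from 1 parental copy, were split: 5 of 25 rose (20.0%) and 8 fell (32.0%), median 0.06, which turned to -0.14 with median centring. Magel2 read -2.52, -2.54, -2.53 and -2.54 against -1.16, -1.17 and -1.08, a rise of 1.40 (SE 0.05, limma adjusted p = 2.5e-06). Dio3, which inactivates thyroid hormone, rose by 1.09 (SE 0.09), while Meg3, a long noncoding RNA from the same imprinted region, fell by 0.67 (SE 0.06). Phlda2 and Grb10, growth inhibitors, fell by 0.75 (SE 0.09) and 0.63 (SE 0.06). Genes named Zfp, which encode zinc finger proteins, had 25 higher and 57 lower of 308, shares of 8.12% and 18.5% beside 15.2% and 10.4% of all genes, median -0.05. Besides Zfp352, Zfp560 rose by 2.09 (SE 0.05) and Zfp217 by 1.47 (SE 0.06). Zfp365 fell by 0.87 (SE 0.11), Zfp750, of skin, by 0.82 (SE 0.13) and Zfp704 by 0.54 (SE 0.07).

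Several large rises belonged to no list. Guca1a, an activator of the photoreceptor guanylate cyclase, rose by 2.99 (SE 0.05, limma adjusted p = 3e-07), Adipoq, the hormone adiponectin, by 2.96 (SE 0.06), Mgll, a lipase of monoglycerides, by 2.79 (SE 0.05), and Ankrd22 by 3.40 (SE 0.08). Grm5, a glutamate receptor of neurons, rose by 3.24 (SE 0.14), and the chemokine Ccl3 by 3.19 (SE 0.08). Their Tip60 arrays lay above every EGFP array, and replicate 3 lay there too.

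Falls were small by comparison. The 7 genes that fell at least 2-fold were Kat5, Asb9, Aim2, LOC622675 and the unnamed transcripts AY512922, AK044873 and AK080387, listed whole because they are so few. The call for Aim2, a sensor of cytosolic DNA, was lost without a filter on background, without Tip60 replicate 1, Tip60 replicate 2 or EGFP replicate 2, and within slide 2. Asb9, a substrate adaptor of a ubiquitin ligase, was not well above background on any Tip60 array and at least 2.0-fold lower. Next came Dtna, a dystrophin partner, down by 0.99 (SE 0.08), and Bahcc1, a chromatin protein, by 0.98 (SE 0.07), but on replicate 3 Asb9, Dtna and Bahcc1 read -2.50, -2.43 and 1.60, above all their EGFP arrays, and none of the 3 was called once replicate 3 entered the fit. Falls that replicate 3 shared included Igdcc4 (0.91, SE 0.09), Ttll6, a tubulin-modifying enzyme (0.90, SE 0.09), St8sia1, a sialyltransferase (0.84, SE 0.10), and Efs, a docking protein of Src kinases (0.80, SE 0.05). Firre, an X-linked noncoding RNA, read 0.99, 0.95, 0.90 and 0.84 against 0.18, -0.04 and 0.13, and fell by 0.83 (SE 0.07, limma adjusted p = 0.0002).

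Promoters of the raised genes were poor in CpG beside those of all tested genes. RefSeq promoter sequences (GRCm38.p6, 250 bases before to 50 after the start) matched 11266 tested genes by symbol. Of these 67.8% had an observed over expected CpG ratio of at least 0.6. The share was 32.1% for the 392 promoters of genes raised at least 2-fold (95% exact binomial interval 27.5% to 37.0%, counting error over genes only), and 71.5% for the 1098 of genes called lower. Genes not called had 71.4%, near the share of those called lower. All promoters in the table had 36.5%, inside the interval of the raised genes. Low genes have poorer promoters as a whole, so the shares are also given by level. In the lowest level group they were 25.7% for the raised genes (n = 272) beside 38.6% of all tested, in the second 46.4% (n = 69) beside 63.6%, in the third 40.5% (n = 37) beside 77.1%, and in the highest 64.3% (n = 14) beside 82.6%. Among genes well above background on all 7 arrays the shares were 42.6% for 216 raised genes and 70.3% for all tested.

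Motifs were counted on both strands of the same windows. The TATA box (TATAAA) was present in 19.6% of promoters raised at least 2-fold, 8.26% of those tested, 6.19% of those called lower and 14.2% of all promoters in the table. The ETS site (CCGGAAG) was present in 3.57% of the raised, 16.8% of the tested and 13.7% of the lower, and in 9.12% of the table. The GC box (GGGCGG) showed 35.7%, 62.4%, 66.7% and 35.9% in the same order. These shares move with level too. In the lowest level group, which holds 272 of the 392 raised promoters, the TATA box was in 19.9% of the raised beside 13.0% of the tested, the ETS site in 2.57% beside 7.09% and the GC box in 29.8% beside 45.7%. The CArG box, the site of SRF, was counted after the fall of actomyosin genes had been seen. It was found in 7 of 29 promoters of that list, 3 of 10 called lower and 4 of 19 not called lower, beside 1.32% of tested genes and 1.57% of the table. The list was chosen partly for known SRF targets, which hold this site. A match is only a run of letters, not a bound site. The promoters below were picked as examples, from 3 genes that rose and 2 that fell. Capitals mark CG, the TATA box as TATAAA on the strand shown, and the CArG box, and run together where these adjoin.
Zfp352 promoter, chr4:90218570-90218869 (+ strand): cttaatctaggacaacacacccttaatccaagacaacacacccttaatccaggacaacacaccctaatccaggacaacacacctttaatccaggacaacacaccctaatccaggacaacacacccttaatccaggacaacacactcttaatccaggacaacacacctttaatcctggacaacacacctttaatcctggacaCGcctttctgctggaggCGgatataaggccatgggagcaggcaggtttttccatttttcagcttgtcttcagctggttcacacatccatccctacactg
Usp17lb promoter, chr7:104842534-104842833 (- strand): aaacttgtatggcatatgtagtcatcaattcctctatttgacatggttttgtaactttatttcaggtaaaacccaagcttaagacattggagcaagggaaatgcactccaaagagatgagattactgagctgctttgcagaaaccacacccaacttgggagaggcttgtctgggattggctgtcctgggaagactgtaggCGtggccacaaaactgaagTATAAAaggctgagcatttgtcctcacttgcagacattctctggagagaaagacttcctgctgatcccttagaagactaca
Krtap4-13 promoter, chr11:99809847-99810146 (- strand): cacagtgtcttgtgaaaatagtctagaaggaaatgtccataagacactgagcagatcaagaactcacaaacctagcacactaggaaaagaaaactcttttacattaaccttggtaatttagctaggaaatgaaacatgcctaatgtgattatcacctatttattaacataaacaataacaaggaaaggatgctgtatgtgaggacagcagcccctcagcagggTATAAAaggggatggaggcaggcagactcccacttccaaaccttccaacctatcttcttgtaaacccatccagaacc
Srf promoter, chr17:46556113-46556412 (- strand): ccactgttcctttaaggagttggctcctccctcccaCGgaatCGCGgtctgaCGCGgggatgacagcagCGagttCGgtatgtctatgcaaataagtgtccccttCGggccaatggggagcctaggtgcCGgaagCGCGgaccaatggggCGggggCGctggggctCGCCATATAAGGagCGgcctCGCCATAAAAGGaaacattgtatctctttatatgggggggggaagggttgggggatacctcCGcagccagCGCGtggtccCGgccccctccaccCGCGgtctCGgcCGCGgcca
Cnn2 promoter, chr10:79988350-79988649 (+ strand): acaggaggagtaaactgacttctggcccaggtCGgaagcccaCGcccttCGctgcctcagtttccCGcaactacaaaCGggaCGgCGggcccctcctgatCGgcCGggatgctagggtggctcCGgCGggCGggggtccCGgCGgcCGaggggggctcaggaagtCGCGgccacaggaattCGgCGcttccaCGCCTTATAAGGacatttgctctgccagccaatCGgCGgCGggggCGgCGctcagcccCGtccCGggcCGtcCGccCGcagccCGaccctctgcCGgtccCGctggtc
They hold 2, 1, 0, 25 and 33 CpG in this order. The median was 7 for promoters raised at least 2-fold, 21.5 for those called lower and 21 for those not called. These examples thus differ more than the groups they come from. The promoters of Usp17lb and Krtap4-13 have a TATA box on the strand shown, and those of Srf and Cnn2 hold 2 and 1 CArG boxes. That of Srf also holds the TATA box on the other strand, read here as TTTATA and left unmarked.

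**Figure D5:**
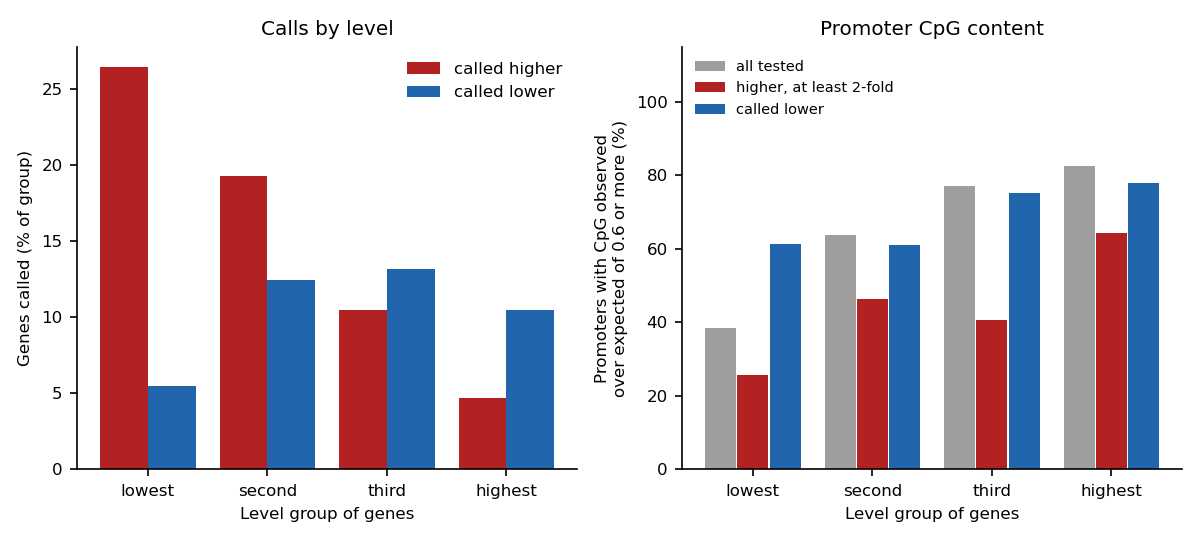
Left, share of genes called higher and lower (percent of the group) in 4 groups by mean level, from 26.5% higher in the lowest to 4.65% in the highest. Right, share of promoters with CpG observed over expected of at least 0.6 (percent) for all tested genes, genes raised at least 2-fold and genes called lower, where the raised genes lie lowest in each group, at 25.7%, 46.4%, 40.5% and 64.3%.

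Genes with more than 1 tested probe gave a second reading, under the main settings only. Of 117 other probes of 98 genes raised at least 2-fold, all 117 lay in the same direction and 105 (89.7%) were themselves called. For all genes called higher, 741 of 810 other probes (91.5%) lay in the same direction and 460 were called, against 7 called in the opposite one. For genes called lower, 934 of 1126 (82.9%) had the same direction, 403 were called and 19 were called in the opposite one.

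The slides each held both groups. All 2579 genes called higher were higher within slide 2 and within slide 3, by a median of 0.55 and 0.64, and the falls had medians of -0.33 and -0.32. These are the arrays that made the calls, so the shared direction is a description. With the slide as a block 2850 genes were called higher and 2011 lower. Deviations from the group means were correlated across genes for each pair of arrays from different groups. Pairs on the same slide had r = 0.58 (EGFP 3 with Tip60 2), 0.43, 0.40, 0.35, -0.04 and -0.24 (EGFP 3 with Tip60 4). Pairs on different slides lay between -0.39 and 0.03. The main fit had no term for the slide.

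Tip60 replicate 3 was outside the fit and offers a reading of the same genes, though against the same EGFP arrays. It lay on the side of the call for 2371 of 2579 genes called higher (91.9%) and 1716 of 1761 called lower (97.4%). The same share over all tested genes was not determined, so these shares lack a baseline. Genes called higher had a median of 0.41 there beside 0.59 in the fit, and genes called lower -0.40 beside -0.33. How far that array lay lower as a whole was not tested. Of the 618 genes raised at least 2-fold, 608 were above the EGFP mean there (98.4%), with a median of 1.35 beside 1.53 in the fit, and 587 exceeded every EGFP array. The array also had signals of its own, 249 genes at least 2-fold above all 7 other arrays and 22 at least 2-fold below. Spatc1l read 8.11 there, against -4.96 for the EGFP mean and -4.87 for the Tip60 mean, and Tfap2e read 2.69 against 6.24 and 6.00.

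Markers of other cells had far lower summed levels than the longer pluripotency list in both groups. For the 13 tested of 17 feeder fibroblast markers the summed linear level was 9.05 to 9.57 in EGFP cells and 9.89 to 10.3 in Tip60 cells. The sum on replicate 3 was 9.31. Of the 13 tested, 4 rose (30.8%), Thy1 by 1.25 (SE 0.06, limma adjusted p = 9.7e-06), and 1 fell (7.69%), beside 15.2% and 10.4% of all genes. For the 9 tested of 20 neuron, muscle and blood markers the sums were 4.08 to 4.20 and 5.0 to 5.12, with 5.13 on replicate 3. In both lists the Tip60 arrays of the fit lay above every EGFP array. Of the 9 tested, 3 rose (33.3%), Gata1 by 0.82, Cd34 by 0.59 and Pecam1 by 0.48, and 1 fell (11.1%). The call for Gata1 was lost within slide 2. Summed pluripotency levels were 807 to 1228 and 878 to 1301 on the same scale, overlapping between the groups. The part of other cells in the lineage results was not tested.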

How the data were processed

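RNA of the 8 samples was amplified, labelled with Cy3 and hybridised singly to a mouse Agilent array, per the labels' protocols. The intensity values are the authors' deposited scanner output, made with Feature Extraction 9.5.1.1 and background-subtracted by it, per the file headers, with probe positions on mm7. A deposited series matrix of log2 values by the authors, of unstated normalization and with column medians of 7.26 to 7.27, served as an alternative. Its columns correlated with the scanner signals at 0.999 or more.

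For each array log2 of the processed signal was taken relative to its 75th percentile, outlier-flagged spots were dropped, and replicate spots were averaged by probe. Testing required the scanner's well-above-background mark on 3 or more arrays in at least 1 group, and the brightest tested probe stood for a gene. Of 41174 probes, 22944 were named by accession, 6664 by current symbol and 3108 by synonym through RefSeq, and 8458 kept the name in the file. Groups were compared with limma 3.58.1 (lmFit and eBayes, R 4.3.3) at a Benjamini-Hochberg adjusted p under 0.05 over all tested genes. The steps were tested on simulated data. A missing spot was left out of its gene's fit, as for 161 genes. The number of arrays limits the precision, and p-values measure only the spread between these samples. A lower bound sets the bright group's mean against, on each array, the dim probe's own signal or, if higher, the lowest among probes marked as above background. Summed marker levels add the linear levels of the tested genes of a list, relative to the 75th percentile.

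The gene lists, and the members described, were chosen with earlier results of these data known. Genes named were the complex members, 5 core pluripotency genes, the largest rises and falls with and without genes near background, and up to 4 in each direction per list, with a few left out for length and a few not reported here. Neighbouring genes named beyond these were chosen after their values were seen. Alternatives covered background correction, scaling, filters, probes, slides, replicate 3, the variance model, the threshold and leaving out each array. The p400 arrays of the series, in 2 colours, were not used here.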

Additional observations from a re-analysis of the deposited data

Results flagged for a closer look

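In each set of 4 arrays (EGFP 1 to 4, or the Tip60 arrays with replicate 3) an array was noted when its gap to the nearest other, as a share of the range, exceeded Dixon's 95% critical value. Of 452 sets examined 28 did so (6.19%), where chance gives about 1 in 20. The array measures gave 1, the 75th percentile of the processed signal, which was 1082 on Tip60 replicate 4 and 1168 to 1184 on the other three Tip60 arrays.

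Replicate 3 stood apart in the Tip60 group for Bahcc1 (1.60), Dtna (-2.43), Tnnt2 (-1.92), Pcdhga1 (-2.50), Cdx2 (-1.20) and Kdm4a (2.56). Replicate 2 did so for Clec10a (0.55), Cox8c (-1.99), Ruvbl2 (4.40) and Chd7 (2.59). Replicate 4 was highest for A530040E14Rik (4.43), Gabarapl2 (4.04) and Pmaip1 (2.87), and replicate 1 for LOC545342 (-1.16).

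Among EGFP arrays, replicate 1 was lowest for P4ha2 (1.25) and Serpinb1b (-5.41). Replicate 2 was highest for Pax6 (-1.06) and Dcxr (0.41). Replicate 3 stood apart for Ccl3 (-4.59), H2-Eb1 (-3.24), Tdgf1 (4.63), Ruvbl1 (6.38), Msl1 (2.38) and Chd7 (3.18), and replicate 4 for Olfr20 (-5.03), Cnn2 (2.57) and Meg3 (4.07).

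Outside the fit, 249 genes read at least 2-fold above all 7 other arrays on Tip60 replicate 3, of which 192 were not called.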

How the results depend on the processing

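Of 223 named genes 215 were called. Under 23 alternatives 125 of these kept call and direction throughout, and 182 did so outside the replicate block, slide 2 alone and a fold requirement. Total calls went from 4340 to 6583 with arrays centred on their medians, 1419 with a fold of at least 1.5 required and 1838 within slide 2. Genes called higher went from 2579 to 1489, 1290 and 1403 under these and to 1705 in the deposited series matrix. Genes called lower went from 1761 to 5094, 129 and 435, and to 826 without a filter on background. Leaving out 1 array gave 3153 to 3720 calls, 2077 to 2463 higher and 1076 to 1429 lower, the fewest lower without Tip60 replicate 4. Calls among list members went from 483 to 155 with the fold requirement, 310 without the filter and 216 within slide 2. Rises in the lowest level group went from 1121 to 574 in the series matrix, 584 with normexp, 736 with quantile normalization, 746 for genes bright on all 7 arrays and 675 within slide 2. The 58 rises of at least 2-fold on chromosome 5 became 18, 17 and 30 under the series matrix, normexp and bright genes, and 35 for genes bright on at least 3 EGFP arrays. The share of promoters with high CpG went from 32.1% to 42.6% and 39.1% under these filters. The cause was not tested, beyond the fewer arrays or genes that a setting leaves.

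The replicate block, on replicates 1, 2 and 4 only, gave 1872 calls, 1557 higher and 315 lower, and 219 list members. It ended the call of 39 named genes and the fit within slide 2 that of 41. Same-numbered samples deviated from their group means at r = -0.28, -0.35 and -0.10. Each such pair lay on different slides, so these values cannot tell whether the numbers pair the samples.

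Uncalled genes changed sign. With median centring Ep400 was at -0.034, Trrap -0.069, Ruvbl1 -0.015, Pou5f1 -0.15 and Nanog -0.20. Nanog was at -0.029 with the replicate block, -0.0098 with replicate 3 included, and between -0.029 and 0.035 with 1 array left out. Zfp42 was at 0.035 with normexp, 0.012 with quantile normalization, 0.010 in the series matrix, 0.0071 with the slide as a block, 0.10 within slide 2 and 0.0052 with replicate 3 weighted, and between -0.098 and 0.037 with 1 array left out.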

Other observations

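Among genes outside every list, Cacna1s, a calcium channel of skeletal muscle, read -0.07, 0.12, -0.09 and 0.00 in EGFP cells and 2.50, 2.34 and 2.42 in Tip60 cells (difference 2.43, SE 0.07, limma adjusted p = 1.3e-06). Echdc3, an enzyme-like gene of lipid metabolism, rose by 2.90 (SE 0.05) and Gm428 by 3.00 (SE 0.06). Gm428 was bright in both groups, at 2.39 to 2.58 and 5.48 to 5.58, and read 5.45 on replicate 3.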
